A study of Mus musculus with 8 samples.

Results

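The genes described here are 10 core genes of transforming growth factor beta (TGF-beta) signalling, taken by name from the 55487 genes of each deposited table: the ligand gene Tgfb1, the receptor genes Tgfbr1, Tgfbr2 and Tgfbr3, the Smad genes Smad2, Smad3, Smad4 and Smad7, and the co-repressor genes Ski and Skil. All 10 passed the filter on low counts and were among the 20631 genes tested. Conventional dendritic cells (cDC), antigen-presenting cells that prime T cells, were sorted from the spleen of untreated C57BL/6 mice and their RNA was sequenced. There were 8 libraries in 4 groups of 2, numbered replicate 2 and replicate 3 in each group: wild-type (WT) cDC1, WT cDC2, cDC1 of the genotype Zeb2 -165(d1+2+3) and cDC2 of the genotype Irf8 +32-/-. The last 2 are called Zeb2 mutant cDC1 and Irf8 mutant cDC2 below; each name points to an enhancer and not to the coding sequence, and each genotype was profiled in 1 cell type. The sources used here do not say what a replicate stands for, how old the mice were or how the gates were set, so a p-value speaks only for the spread among these libraries.

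TGF-beta is secreted as an inactive complex in which the mature dimer is held by its own propeptide, and it signals once it has been released from it. The freed dimer binds the type II receptor TGFBR2, which then phosphorylates the type I receptor TGFBR1; TGFBR3, also called betaglycan, is a co-receptor that presents ligand. TGFBR1 phosphorylates SMAD2 and SMAD3, these join SMAD4 and move to the nucleus, while SMAD7 blocks the receptor as a feedback inhibitor and SKI and SKIL (SnoN) hold Smad complexes in a repressed state. In dendritic cells the pathway is known for restraining activation and for its part in the development of Langerhans cells and of intestinal CD103+ cells.

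The libraries held between 49380686 and 58611821 counts. The sort was checked on 1 surface gene per cell type: Xcr1, a cDC1 chemokine receptor, stood at 658 to 700.4 CPM (counts scaled to library size with TMM factors) in cDC1 libraries and at 3.41 to 6.28 CPM in cDC2 libraries, and Sirpa, a cDC2 surface receptor, stood at 1.81 to 2.59 CPM and 754.9 to 916 CPM. In the cell type profiled, the gene named by each genotype was not lower in the mutant. That cell type is the one where the gene's WT level is the lower. Zeb2 stood at 2.09 and 2.10 CPM in WT cDC1 and at 2.24 and 3.54 CPM in Zeb2 mutant cDC1. Its level in WT cDC2 was 200.5 and 200.3 CPM. Irf8 stood at 126.2 and 103.8 CPM in WT cDC2 and at 146.8 and 120 CPM in Irf8 mutant cDC2. Its level in WT cDC1 was 3263 and 3641 CPM. Neither genotype was profiled where its gene is high, so a fall there cannot be seen in these libraries. Across the 8399 genes averaging 10 CPM or more, the log2 ratio of WT cDC1 replicate 2 to replicate 3 fell with the summed exon length (Spearman's rho -0.391, across genes), so that long transcripts were lower in replicate 2. The other groups had values between -5.98e-06 and 0.241.

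The promoters of the 2 signalling receptors are shown because both receptor genes were lower in cDC1 together. The promoter table drawn from RefSeq (GRCm38.p6) matched 5 of the 10 genes: Tgfb1, Tgfbr1, Tgfbr2, Smad3 and Ski. Each line holds the 250 bases before the transcript start, 5′ to 3′ on the gene's strand, with matches to a Smad motif in capitals.
Tgfbr1: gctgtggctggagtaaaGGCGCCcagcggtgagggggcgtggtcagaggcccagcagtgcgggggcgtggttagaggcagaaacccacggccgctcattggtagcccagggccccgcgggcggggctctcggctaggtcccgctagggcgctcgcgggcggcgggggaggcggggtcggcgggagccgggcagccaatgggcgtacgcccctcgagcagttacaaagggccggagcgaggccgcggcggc
Tgfbr2: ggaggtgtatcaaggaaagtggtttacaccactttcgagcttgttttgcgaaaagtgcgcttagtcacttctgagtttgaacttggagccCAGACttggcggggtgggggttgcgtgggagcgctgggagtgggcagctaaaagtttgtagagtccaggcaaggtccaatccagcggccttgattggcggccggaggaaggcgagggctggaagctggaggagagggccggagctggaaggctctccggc
The first is chr4:47352972-47353221 on the plus strand and the second chr9:116175364-116175613 on the minus strand. Both strands were searched for the Smad box CAGAC and for the GC-rich element GGCGCC, which reads the same on both strands, and in these windows no match of one overlapped a match of the other. The Tgfbr1 window shown holds 1 GGCGCC starting 233 bases before the start and no Smad box, and the Tgfbr2 window holds 1 CAGAC starting 160 bases before the start and no GC-rich element. Of 32851 promoter windows of the same length, 42.19% hold a Smad box and 9.586% the GC-rich element. A Smad box is thus common and the GC-rich element less so, and a match to either describes letters, not a bound site. The table holds a further Tgfbr1 window, chr4:47385966-47386215, for a transcript that starts 32994 bases inside the gene; it has 1 CAGAC starting 203 bases before that start and no GC-rich element. The 2 windows shown differ in base composition, with 74.8% G or C for Tgfbr1 and 58.4% for Tgfbr2.

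The first question was whether the machinery for receiving TGF-beta differs between the 2 types of cDC in wild-type spleen. Of the 10 genes, 5 were lower in cDC1 than in cDC2 and 0 were higher (edgeR quasi-likelihood test, Benjamini-Hochberg adjusted p under 0.05): both signalling receptors Tgfbr1 and Tgfbr2, the common mediator Smad4, the inhibitor Smad7 and the co-repressor Skil. The background is high, since 30.1% of all genes tested were called in either direction and 15.9% were called lower in cDC1. Among genes of at least 10 CPM, which include 9 of the 10, the share called was 49.4%, so 5 calls among 9 is close to what such genes show. The median log2 fold change was -0.65 over the 10 genes and 0.03 over all genes tested. Without regard to sign the median size was 0.65 for the 10 genes, 0.66 over all genes tested and 0.48 over those of at least 10 CPM.

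**Figure D1:**
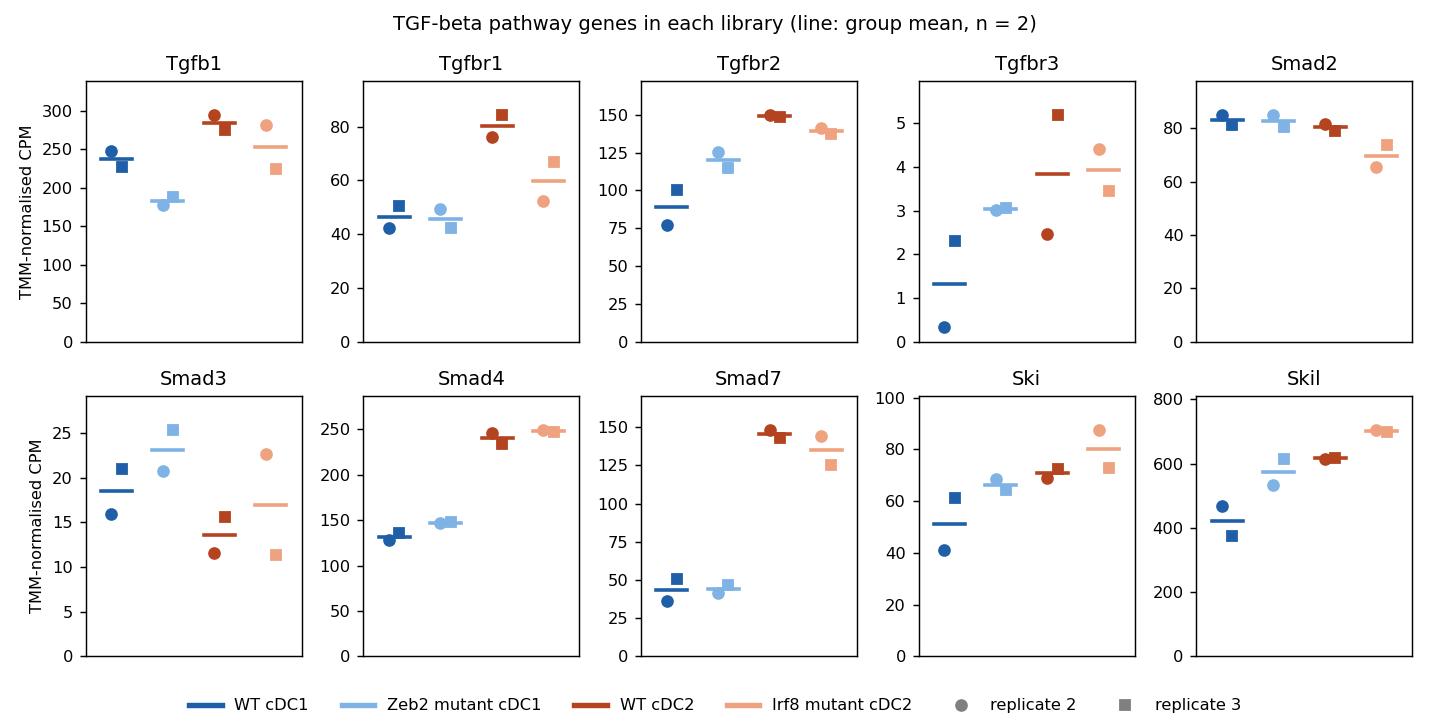
Each panel shows 1 gene: TMM-normalised CPM (vertical axis, from 0) in the 8 libraries, with circles for replicate 2, squares for replicate 3 and a line at the group mean (n = 2). For Smad4 and Smad7 all 4 cDC2 libraries lie above all 4 cDC1 libraries. They lie at 233.7 to 249.5 against 128.2 to 147.6 CPM for Smad4 and 125.1 to 148.2 against 36.36 to 50.35 CPM for Smad7. The same holds for Tgfbr1, Tgfbr2, Ski and Skil. For Skil the highest cDC1 library is at 614 CPM and the lowest cDC2 library at 615.6 CPM. The share of such genes over all genes was not counted.

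Tgfb1 (ENSMUSG00000002603, chr7:25687002-25705077, plus strand, GRCm38 as are all gene positions below) encodes TGF-beta 1, the form of the ligand made by most immune cells. It stood at 247.7 and 227.2 CPM in WT cDC1 and at 294.2 and 274.1 CPM in WT cDC2. The WT groups did not overlap, but the difference did not pass the test (log2 fold change -0.26, SE 0.14, adjusted p = 0.196, edgeR). With 2 libraries a group, a lack of overlap is weak evidence, and its share over all genes was not counted. Here and below it is a description and no result. Zeb2 mutant cDC1 had 177.2 and 187.4 CPM, the lowest values of the series, and Irf8 mutant cDC2 had 280.8 and 223.7 CPM, of which replicate 3 lay below both WT cDC1 libraries.

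Of the receptors, Tgfbr2 (chr9:116084293-116175360, minus strand), the receptor that binds ligand first, stood at 77.29 and 100.3 CPM in WT cDC1 and at 149.9 and 148.5 CPM in WT cDC2. Its 2 WT cDC2 libraries differed by far less than its 2 WT cDC1 libraries, and the groups were apart. The log2 fold change was -0.75 (SE 0.14, adjusted p = 0.00276, edgeR), a 1.68-fold lower level in cDC1. Tgfbr1 (chr4:47353222-47414931, plus strand), the kinase that phosphorylates SMAD2 and SMAD3, stood at 42.18 and 50.55 CPM in WT cDC1 and at 75.94 and 84.28 CPM in WT cDC2. It was 1.73-fold lower in cDC1 (log2 fold change -0.79, SE 0.16, adjusted p = 0.00444, edgeR). Across genes of at least 10 CPM, the log2 fold change of WT cDC1 against WT cDC2 fell with exon length (Spearman's rho -0.274, across genes). With that trend removed, the log2 fold change was -0.51 for Tgfbr2 and -0.59 for Tgfbr1. Both were smaller but still called (adjusted p 0.00942 and 0.0191, edgeR). The call on Tgfbr1 was lost without WT cDC2 replicate 3, where the adjusted p was 0.0543.

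Tgfbr3 (chr5:107106570-107289629, minus strand) was the scarce member of the set, with 19 and 135 counts in WT cDC1 and 136 and 292 counts in WT cDC2, or 0.33 and 2.31 against 2.47 and 5.19 CPM. Its libraries within each WT group differed more than those of the other genes. The log2 fold change of -1.54 had an SE of 0.68 and was not called (adjusted p = 0.121, edgeR). It was called lower in cDC1 by DESeq2 (adjusted p = 0.0415), by limma-voom (adjusted p = 0.0368) and by edgeR with no filter on low counts (adjusted p = 0.00122). Without WT cDC1 replicate 3 its log2 fold change was -3.54 (adjusted p = 0.000954, edgeR), and without replicate 2 it was -0.73 (adjusted p = 0.306, edgeR), so the size rests on which WT cDC1 library is used. In its exons 4.54% of the bases are shared with a predicted gene on the same strand, whose reads cannot be told apart there.

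Of the 4 Smad genes, which belong to 1 protein family, Smad4 and Smad7 were called and Smad2 and Smad3 were not. Smad4 (chr18:73639009-73703780, minus strand), the partner that all receptor-activated Smads share, stood at 128.2 and 135.4 CPM in WT cDC1 and at 246.6 and 233.7 CPM in WT cDC2. It was 1.82-fold lower in cDC1 (log2 fold change -0.87, SE 0.11, adjusted p = 0.000252, edgeR). Smad7 (chr18:75367529-75395935, plus strand), the inhibitor that recruits ubiquitin ligases to the receptor and is itself induced by the pathway, stood at 36.36 and 50.35 CPM in WT cDC1 and at 148.2 and 142.6 CPM in WT cDC2. At 3.35-fold lower in cDC1 it had the largest called difference of the 10 (log2 fold change -1.75, SE 0.17, adjusted p = 2.88e-05, edgeR). Both calls held in all 19 alternative analyses, with log2 fold changes of -0.91 to -0.83 for Smad4 and -2.00 to -1.53 for Smad7.

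Smad2 and Smad3 encode the Smads that TGFBR1 phosphorylates. Smad2 (chr18:76241580-76310963, plus strand) was the most even gene of the set in wild type, at 84.88 and 81.29 CPM in WT cDC1 and 81.65 and 79.1 CPM in WT cDC2. Its log2 fold change was 0.05, with a 95% interval of -0.23 to 0.32. Smad3 (chr9:63646767-63757994, minus strand) stood at 16 and 20.96 CPM in WT cDC1 and at 11.57 and 15.58 CPM in WT cDC2. It was the only gene besides Smad2 with a higher mean in cDC1, and the difference was within the error (log2 fold change 0.45, SE 0.30, adjusted p = 0.318, edgeR).

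Of the co-repressors, Skil (chr3:31095058-31122577, plus strand), which encodes SnoN and is a feedback target of the pathway, had the highest CPM of the set: 469 and 373.2 in WT cDC1 and 615.6 and 617.2 in WT cDC2. It was 1.46-fold lower in cDC1 (log2 fold change -0.55, SE 0.14, adjusted p = 0.013, edgeR). This call was lost in 4 of the 19 alternatives, among them the removal of a trend with transcript length (log2 fold change -0.25, adjusted p = 0.279, and up to 0.329 over the alternatives); the exons of Skil sum to 9694 bases, longer than those of 87.8% of genes. Those that lost it also included leaving out either WT cDC2 library. Ski (chr4:155154075-155222592, minus strand), its relative, stood at 41.01 and 61.17 CPM in WT cDC1 and at 69.12 and 72.53 CPM in WT cDC2, and did not pass (log2 fold change -0.47, SE 0.18, adjusted p = 0.0811, edgeR). Ski was called lower in cDC1 by DESeq2 (adjusted p = 0.0445), by edgeR with no filter on low counts (adjusted p = 0.0362), and without WT cDC1 replicate 3 (log2 fold change -0.79, adjusted p = 0.0024, edgeR). Without WT cDC1 replicate 2 its log2 fold change was -0.21 (adjusted p = 0.345, edgeR).

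Levels can be compared between genes only per length, in FPKM (fragments per kilobase of exon, scaled to library size). In WT cDC2 the order of group means ran from Smad4 (62.4) and Skil (61.4), whose libraries overlapped, through Tgfb1 (54.4), Smad7 (31.0), Tgfbr2 (17.6), Ski (12.3) and Tgfbr1 (11.8) to Smad2 (8.83), Smad3 (2.37) and Tgfbr3 (0.57). Ski and Tgfbr1 also overlapped, and the other neighbours did not. In WT cDC1 the order began with Tgfb1 (47.9) and Skil (44.1), which overlapped, and Smad4 (36.2). Tgfbr2 (11.1), Smad7 (9.82), Smad2 (9.64), Ski (9.42) and Tgfbr1 (7.25) followed, and each overlapped with the next. Smad3 (3.41) and Tgfbr3 (0.21) were again the lowest. The inhibitor Smad7 thus stood between Tgfb1 and Tgfbr2 in cDC2 and in the overlapping middle of the set in cDC1.

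**Figure D2:**
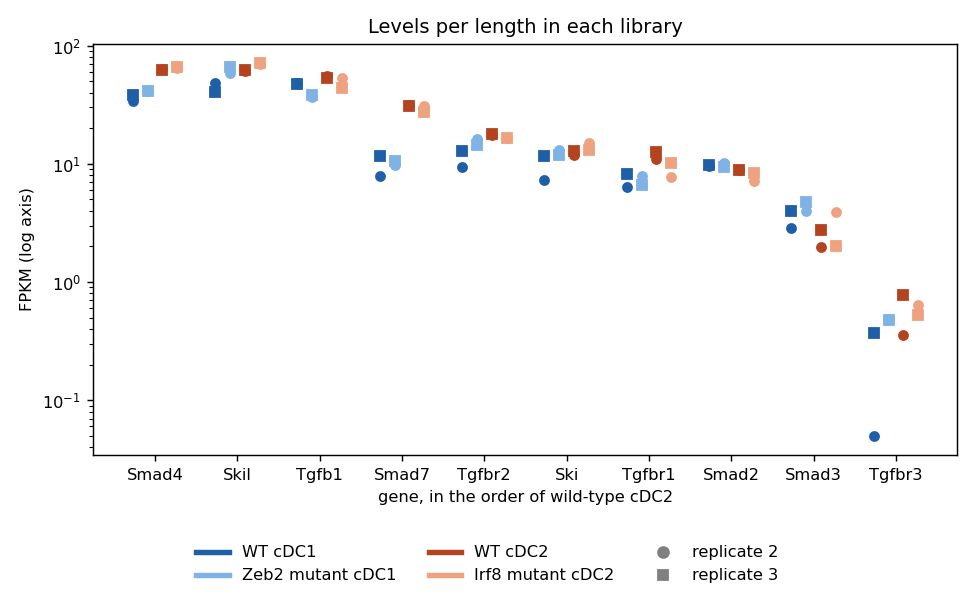
FPKM on a log axis (vertical) for the 10 genes (horizontal, in the order of WT cDC2) in the 8 libraries, coloured by group, with circles for replicate 2 and squares for replicate 3. Smad4, Skil and Tgfb1 are the 3 highest genes in every group, and Tgfbr3, at 0.05 to 0.78 FPKM, is the lowest.

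The same cell types can be compared in mice of the altered genotypes, Zeb2 mutant cDC1 against Irf8 mutant cDC2, a comparison that shares no library with the WT one but in which cell type and genotype cannot be told apart. Smad7 was again 3.06-fold lower in cDC1 (41.66 and 46.54 CPM against 144.5 and 125.1 CPM; log2 fold change -1.61, SE 0.17, adjusted p = 5e-05, edgeR). Smad4 was 1.69-fold lower (146.5 and 147.6 CPM against 249.5 and 247.1 CPM; log2 fold change -0.76, SE 0.11, adjusted p = 0.000636, edgeR). For these 2 genes the log2 fold change differed from that of the WT comparison by less than 1 SE.

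Tgfb1 was the third gene called between the mutants, 1.38-fold lower in Zeb2 mutant cDC1 (log2 fold change -0.47, SE 0.14, adjusted p = 0.0286, edgeR). It lost the call in 7 of the 19 alternatives, among them leaving out either Zeb2 mutant library, either WT cDC2 library or Irf8 mutant replicate 2, with adjusted p up to 0.199. In all, 3 of the 10 genes were called lower and 0 higher, where 27.9% of all genes were called in either direction, 15.0% were called lower and, among genes of at least 10 CPM, 44.9% were called. Neither receptor passed here: Tgfbr1 stood at 49.16 and 42.21 CPM against 52.44 and 66.69 CPM (adjusted p = 0.113, edgeR), and Tgfbr2 at 125.3 and 114.7 CPM against 141.3 and 137.1 CPM (adjusted p = 0.311, edgeR). The groups did not overlap for either. The sign of the log2 fold change was the same in both comparisons for 10 of the 10 genes; among the 8399 genes of at least 10 CPM it was the same for 85.01%.

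**Figure D3:**
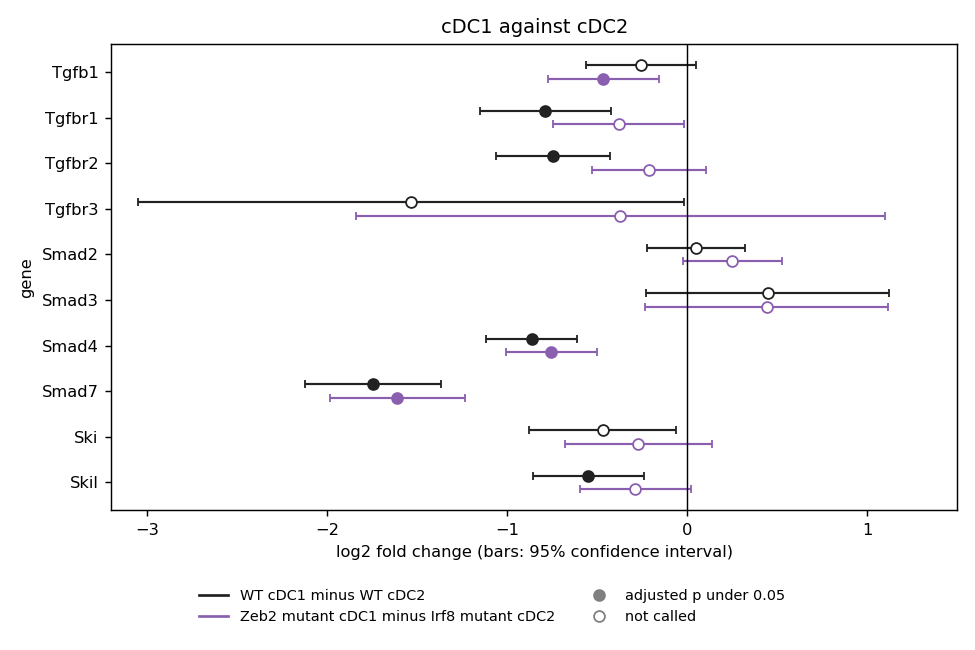
Log2 fold change (horizontal axis, with 95% confidence intervals) of each gene in WT cDC1 minus WT cDC2 (black) and in Zeb2 mutant cDC1 minus Irf8 mutant cDC2 (purple); filled points passed an adjusted p under 0.05. Smad7 at -1.75 and -1.61 and Smad4 at -0.87 and -0.76 are the genes filled in both.

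The second question was whether the altered Zeb2 enhancer changes these genes in cDC1, and the third whether loss of the Irf8 +32 enhancer changes them in cDC2. In Zeb2 mutant cDC1 0 of the 10 genes were called against WT cDC1, by edgeR, by DESeq2 and by limma-voom, where edgeR called 0.0679% of all genes. At an unadjusted p under 0.05 there were 3 of the 10, against 10.5% of all genes. Skil stood at 534.2 and 614 CPM against 469 and 373.2 CPM in WT cDC1 (log2 fold change 0.45, SE 0.14, unadjusted p = 0.00911, adjusted p = 0.313, edgeR). Tgfbr2 stood at 125.3 and 114.7 CPM against 77.29 and 100.3 CPM (log2 fold change 0.43, SE 0.14, unadjusted p = 0.0123, adjusted p = 0.342, edgeR). The mutant libraries lay above the WT cDC1 libraries for both genes and below those of WT cDC2.

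The third was the ligand Tgfb1, whose 2 mutant libraries lay below both WT cDC1 libraries, with values given above (log2 fold change -0.38, SE 0.14, unadjusted p = 0.0199, adjusted p = 0.384, edgeR). Ski, at 68.49 and 64.11 CPM, also lay above both WT cDC1 libraries without overlap (log2 fold change 0.38, adjusted p = 0.509, edgeR). So did Tgfbr3, with 175 and 166 counts against 19 and 135, and Smad4, at 146.5 and 147.6 CPM. Neither of these was called (adjusted p 0.572 and 0.667, edgeR). Without WT cDC1 replicate 3, 3 genes were called higher in the mutant, Ski, Tgfbr3 and Tgfbr2, and over all genes 666 were called higher and 369 lower, against 14 called with it. Across genes of at least 10 CPM, the log2 fold change of this comparison rose with exon length (Spearman's rho 0.481, across genes). With that trend removed, the log2 fold change was 0.26 for Skil, 0.29 for Tgfbr2, 0.32 for Ski and -0.41 for Tgfb1, and 0 of the 10 genes were called.

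Smad2, Smad7 and Tgfbr1 were the genes closest to WT cDC1. For Smad7 the log2 fold change was 0.02 with a 95% interval of -0.34 to 0.39, for Tgfbr1 it was -0.02 with an interval of -0.38 to 0.34, and for Smad2 it was -0.01 with an interval of -0.28 to 0.27. The log2 fold change of Smad7 between WT cDC1 and WT cDC2 was -1.75, far larger than either end of its interval here. Smad3 (20.78 and 25.37 CPM) overlapped with WT cDC1.

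Against WT cDC2, 0 of the 10 genes were called in Irf8 mutant cDC2 by each of the 3 tools, and edgeR called 0% of all genes. At an unadjusted p under 0.05 there was 1 of the 10, against 6.36% of all genes. That gene was the type I receptor Tgfbr1, at 52.44 and 66.69 CPM against 75.94 and 84.28 CPM in WT cDC2 (log2 fold change -0.43, SE 0.16, unadjusted p = 0.0249, adjusted p = 0.713, edgeR). Its mutant libraries lay between those of WT cDC1 and WT cDC2. Smad4 (249.5 and 247.1 CPM) and Smad7 (144.5 and 125.1 CPM) lay near WT cDC2, with log2 fold changes of 0.05 (95% interval -0.20 to 0.30) and -0.11 (95% interval -0.47 to 0.26). Skil, at 705.1 and 699 CPM, and Ski, at 87.53 and 72.82 CPM, lay above both WT cDC2 libraries, and Smad2, at 65.54 and 73.72 CPM, below them, none of them called (adjusted p 0.924, 0.952 and 0.872, edgeR). Tgfbr2 (141.3 and 137.1 CPM) lay below both WT cDC2 libraries and Tgfbr3 (229 and 169 counts) overlapped with them, with log2 fold changes of -0.10 and 0.04. Tgfb1, with values given above, had -0.17. Smad3 was the gene on which the 2 mutant libraries differed most among those of at least 10 CPM, at 22.71 and 11.3 CPM.

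The Zeb2 mutant's difference from WT cDC1 minus the Irf8 mutant's difference from WT cDC2 was also tested. Each genotype was profiled in 1 cell type, so genotype and cell type cannot be told apart in this test. Of the 10 genes 0 were called by edgeR, DESeq2 or limma-voom, where edgeR called 0.0194% of all genes; at an unadjusted p under 0.05 there was 1, Tgfbr2, against 7.62% of all genes. Its difference of log2 fold changes was 0.53 (SE 0.20, unadjusted p = 0.024, adjusted p = 0.592, edgeR). Without WT cDC1 replicate 3, which leaves that group with 1 library, far more of all genes passed. Tgfbr3 and Tgfbr2 were among them.

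**Figure D4:**
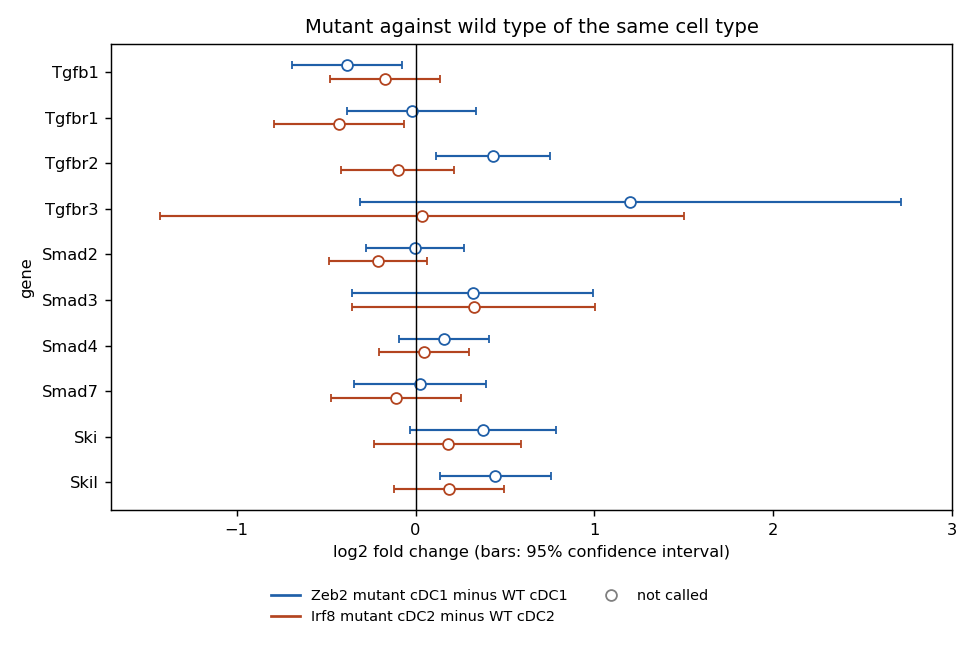
Log2 fold change (horizontal axis, with 95% confidence intervals) of each gene in Zeb2 mutant cDC1 minus WT cDC1 (blue) and Irf8 mutant cDC2 minus WT cDC2 (red). All points are open, since none passed an adjusted p under 0.05; Skil, Tgfbr2 and Tgfb1 in the Zeb2 mutant and Tgfbr1 in the Irf8 mutant have intervals that leave out 0.

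RNA of other cells can enter a sort, and in bulk libraries fewer cells of a type and less RNA per cell cannot be told apart. Platelets and megakaryocytes carry much TGF-beta 1; their 5 markers summed to 2.56 to 9.78 CPM, Pf4 reached at most 0.31 CPM, Gp1bb was at 0 in every library, and Tgfb1 stood at 177.2 CPM or more. Stromal and endothelial cells are rich in TGF-beta receptors; the summed level of their 7 markers was 74.06 and 77.43 CPM in WT cDC1 and 90.39 and 91.29 CPM in the Zeb2 mutant, against 120.9 and 130.8 CPM in WT cDC2 and 149.9 and 108.4 CPM in the Irf8 mutant. Most of it was Pecam1, at 69.86 to 134 CPM, while the collagen gene Col1a1 and the endothelial cadherin gene Cdh5 reached at most 0.7085 and 1.496 CPM. The endothelial receptor gene Kdr stood at 11.67 to 12.75 CPM in WT cDC2 and 6.628 to 12.9 CPM in the Irf8 mutant, against 0.4493 to 2.549 CPM in WT cDC1 and 0.5332 to 0.9035 CPM in the Zeb2 mutant, and the pericyte gene Pdgfrb reached 2.407 CPM. The 11 macrophage and monocyte markers summed to 784.4 to 1292 CPM in WT cDC1 and 1172 to 1212 CPM in WT cDC2, most of it Lyz2. They summed to 728.4 and 1055 CPM in the Zeb2 mutant and 1162 and 864.2 CPM in the Irf8 mutant. Within the list Adgre1 stood at 203.8 to 227.4 CPM in WT cDC2 against 3.25 to 3.84 CPM in WT cDC1. C1qa stood at 9.84 to 10.68 CPM in WT cDC2 against at most 0.71 CPM in WT cDC1. Ccr2 and Ly6c2 went the other way, at 41.51 to 41.93 and 3.64 to 3.66 CPM in WT cDC2. In WT cDC1 they stood at 70.73 to 74.84 and 7.94 to 10.13 CPM.

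The 8 T cell markers summed to 80.56 to 93.57 CPM in WT cDC1, 109.5 to 118.3 CPM in WT cDC2 and 106.6 to 144.8 CPM in the mutants. The 6 B cell markers summed to 40.83 to 57.42 CPM in cDC1 and 122.3 to 172.2 CPM in cDC2. In cDC2 most of it was Cd22, at 155.7 to 165.5 CPM in WT and 114.3 to 135.4 CPM in the Irf8 mutant. In cDC1 Cd22 stood at 20.51 to 21.52 CPM in WT and 12.87 to 13.63 CPM in the Zeb2 mutant. Ms4a1 went the other way, at 21.06 to 35.53 CPM in WT cDC1 against 5.892 to 7.389 CPM in WT cDC2. It stood at 26.57 to 27.4 CPM in the Zeb2 mutant and 5.585 to 10.32 CPM in the Irf8 mutant. The 6 neutrophil markers summed to 0.77 to 11.85 CPM in the WT libraries, 55.92 and 79.73 CPM in Zeb2 mutant cDC1 and 36.05 and 30.92 CPM in Irf8 mutant cDC2. The part of these cells in the differences of the 10 genes was not tested.

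Around the 10 genes, 129 others of the wider pathway were placed in 8 lists by role, and 119 of them were tested. In WT cDC1 against WT cDC2, 50 were lower and 15 higher by edgeR, where 30.1% of all genes tested were called; 76 of them were of at least 10 CPM and 48 of those were called, against 49.4% of such genes. Their median log2 fold change was -0.50. The counts by list below stand against 15.9% of all genes called lower in cDC1 and 14.2% called higher. Pmepa1 and Ldlrad4 stand in 2 lists each.

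In the list of other ligands 5 of 13 genes tested were lower in cDC1 and 0 higher; 1 of the 5, Bmp1, encodes a protease and no ligand in spite of its name. The bone morphogenetic protein gene Bmp2 stood at 0.28 and 0.12 CPM in WT cDC1 and at 49.43 and 55.17 CPM in WT cDC2 (adjusted p = 8.61e-07, edgeR). Bmp8a had 3 counts in all in WT cDC1 and stood at 7.95 and 7.34 CPM in WT cDC2. Tgfb3, a further TGF-beta, was 3.17-fold lower in cDC1, at 2.16 and 2.22 against 8.38 and 5.52 CPM (adjusted p = 0.00719, edgeR), and without WT cDC2 replicate 2 its adjusted p was 0.0724. Bmp1 was 6.83-fold lower (adjusted p = 0.000185, edgeR). For these genes the WT groups were apart by more than the libraries within them.

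Genes for the latent complex and its activation moved both ways, 7 lower and 3 higher of 18 tested; 10 were of at least 10 CPM and 7 of those were called, against 49.4% of such genes. Itgb3, the beta subunit of the integrin alpha v beta 3, stood at 1.52 and 1.92 CPM in WT cDC1 and at 111.4 and 92.24 CPM in WT cDC2 (59.3-fold, adjusted p = 8.76e-08, edgeR). The matrix metalloproteinase genes Mmp9 and Mmp14, whose products can cleave the latent complex, were at 0.26 and 0.24 CPM and at 0.79 and 0.12 CPM in WT cDC1 and at 29.46 and 23.68 CPM and 17.78 and 20.82 CPM in WT cDC2. In the opposite direction, the proprotein convertase gene Pcsk5 stood at 21.5 and 17.67 CPM in WT cDC1 and at 0.11 and 0.07 CPM in WT cDC2 (adjusted p = 3.85e-07, edgeR).

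Of the other receptors 3 of 14 were higher in cDC1 and 2 lower. Acvrl1, which encodes the type I receptor ALK1, stood at 156.4 and 140.1 CPM in WT cDC1 and at 27.6 and 23.2 CPM in WT cDC2, 5.84-fold higher in cDC1 (adjusted p = 4.82e-06, edgeR). The type I receptor gene Acvr1 was 2.15-fold higher (adjusted p = 0.0078, edgeR, and 0.0753 without WT cDC2 replicate 3). The activin type II receptor gene Acvr2a was 3.70-fold lower, at 7.34 and 8.28 against 26.31 and 31.46 CPM (adjusted p = 2.86e-05, edgeR). The type I receptors therefore did not share a direction, since Tgfbr1 was lower in cDC1. Of the 3 other Smads tested, Smad1, which acts for bone morphogenetic proteins, was lower in cDC1, at 42.98 and 45.98 against 87.23 and 97.78 CPM (adjusted p = 0.000777, edgeR), and Smad5 and Smad6 were not called.

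Of the regulators of Smads and receptors 9 of 22 were lower in cDC1 and 3 higher, and 11 of the 20 of at least 10 CPM were called, against 49.4% of such genes. Smurf2, a ubiquitin ligase that SMAD7 brings to the receptor, was 2.10-fold lower in cDC1 (22.62 and 16.92 against 38.99 and 43.96 CPM, adjusted p = 0.00102, edgeR), the direction of Smad7. Usp11, a deubiquitinase, was 4.92-fold lower (adjusted p = 5.33e-06, edgeR). Fkbp1a, which encodes FKBP12 and holds the type I receptor inactive, was 2.17-fold higher in cDC1 (201.8 and 150.6 against 80.16 and 82.42 CPM, adjusted p = 0.000373, edgeR). Pmepa1, a feedback inhibitor that the pathway induces, as it does Smad7, was 3.16-fold higher in cDC1 (16.66 and 11.34 against 5.29 and 3.57 CPM, adjusted p = 0.00763, edgeR), with an adjusted p of 0.0749 without WT cDC2 replicate 3.

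Among nuclear partners of Smads 11 of 18 were lower in cDC1 and 0 higher, and 10 of the 15 of at least 10 CPM were called, against 49.4% of such genes. Zeb2, a Smad-binding repressor that is itself a cDC2 gene, stood at 2.09 and 2.10 CPM in WT cDC1 and at 200.5 and 200.3 CPM in WT cDC2. Tgif2, a co-repressor, was 6.59-fold lower, and the Runt factor genes Runx2 and Runx3 were 3.43-fold and 2.42-fold lower (adjusted p 3.02e-05, 0.000145 and 0.00182, edgeR). In the branch that does not use Smads 3 of 11 were lower and 1 higher, and its most abundant gene, the phosphatase subunit gene Ppp2ca, was not called (adjusted p = 0.061, edgeR).

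Of 22 genes commonly used as TGF-beta targets in other cells 12 were lower in cDC1 and 6 higher, and none of them is specific to the pathway. Of the 13 of at least 10 CPM, 12 were called, against 49.4% of such genes. The list was chosen with earlier results of these data known and holds Itgae, itself used as a cDC1 marker. The excess is therefore no result about targets of the pathway. Itgae, which encodes CD103, and Cd207, which encodes langerin, were the most cDC1-biased: Itgae stood at 104 and 112.3 against 1.47 and 2.40 CPM and Cd207 at 84.12 and 67.9 against 0.07 and 0.68 CPM (adjusted p 9.81e-08 and 2.98e-05, edgeR). Cd101, an inhibitory surface receptor, and Axl, a receptor kinase for dying cells, were biased to cDC2, at 0.88 and 0.65 against 29.26 and 25.9 CPM and at 2.77 and 2.41 against 51.1 and 41.71 CPM. The target list held genes strongly biased to each cell type.

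**Figure D5:**
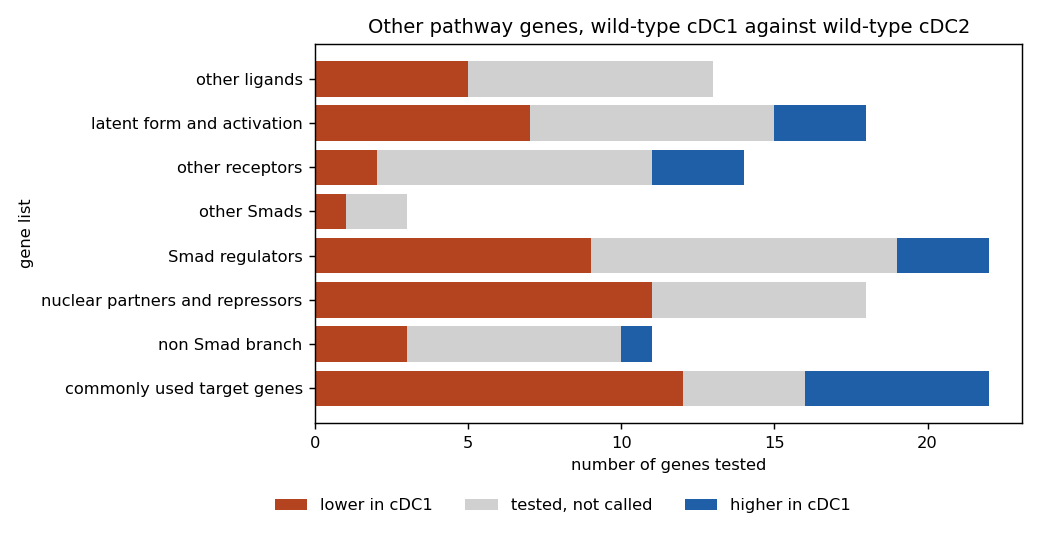
Number of genes tested (horizontal axis) in each of the 8 lists of other pathway genes, split into those lower in WT cDC1 than in WT cDC2 (red), those not called (grey) and those higher (blue), at an adjusted p under 0.05. Nuclear partners are called in 1 direction, 11 of 18, while the target list holds 12 lower and 6 higher.

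In the mutants 0 of these 119 genes were called by edgeR in either comparison with wild type; at an unadjusted p under 0.05 there were 30 for Zeb2 mutant cDC1, where the share over all genes was 10.5%, and 14 for the Irf8 mutant, where it was 6.36%. DESeq2 gave an adjusted p to 97 of them for the Zeb2 mutant and called 7. For the Irf8 mutant it gave one to 110 and called 2. With limma-voom 2 were called in the Zeb2 mutant and 0 in the Irf8 mutant. Among all genes tested, DESeq2 called 158 up and 147 down of 13431 for the Zeb2 mutant. For the Irf8 mutant these were 76 up and 75 down of 16631. The limma-voom calls were 8 up and 12 down, and 1 up and 2 down, each of 20631. The largest group among the 30 came from the target list, 12 of 22. The lists were chosen with earlier results of these data known, and the share among genes of like level was not counted. The log2 fold change of this comparison also rose with exon length (Spearman's rho 0.481, across genes). These counts are therefore no result about targets of the pathway. Itgae stood at 199.5 and 259.3 CPM in Zeb2 mutant cDC1 against 104 and 112.3 CPM in WT cDC1 (log2 fold change 1.08, SE 0.19, adjusted p = 0.0871, edgeR; 3.4e-05 with DESeq2 and 0.0281 with limma-voom). Cd207 stood at 11.04 and 19.49 CPM against 84.12 and 67.9 CPM (log2 fold change -2.32, SE 0.46, adjusted p = 0.16, edgeR; 0.181 with DESeq2 and 0.00744 with limma-voom). Itgb3 stood at 5.13 and 3.93 CPM against 1.52 and 1.92 CPM (log2 fold change 1.40, SE 0.22, adjusted p = 0.0636, edgeR; 6.23e-06 with DESeq2 and 0.278 with limma-voom). These genes were apart between the groups in every library, Cd207 in the opposite direction to Itgae although both are biased to cDC1.

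Between the mutants 39 of the 119 were lower in Zeb2 mutant cDC1 and 15 higher than in Irf8 mutant cDC2, where 27.9% of all genes were called. The genes whose levels followed a member most closely over the 8 libraries were found for the members with the lowest and the highest log2 fold change in wild type, by the distance between centred log2 CPM profiles among 8164 protein-coding genes of at least 10 CPM. Nearest to Smad7 were Slc15a4, Slc44a2 and Grk3, with distances of 0.247, 0.252 and 0.253 against a median of 2.45 over all these genes; Slc15a4 had means of 37.2 CPM in WT cDC1 and 37.3 CPM in the Zeb2 mutant, against 134.9 CPM in WT cDC2 and 128.2 CPM in the Irf8 mutant. Nearest to Smad3 were Tmppe, AI597479 and Zfp322a, with distances of 0.401, 0.483 and 0.521 against a median of 1.37.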

How the data were processed

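Per the labels' protocols, 100000 cells per sample were sorted from spleen, and libraries were made from 10 ng of total RNA with the SMARTer Ultra Low RNA kit and read as pairs of 150 bases. That kit keeps no record of strand. The tools were Salmon, STAR, bcl2fastq and Subread's featureCounts, with the builds mm10 and GRCm38, per the submitters' processing notes; how reads were counted is not stated there. The deposited counts are whole reads per gene, the authors' CPM is the count scaled to the column's total and the authors' FPKM is that CPM per kilobase of exon, per the file headers and as checked on the values. Counts were used for the tests, CPM values in the text are recomputed from them with TMM factors, and the deposited FPKM serves for levels between genes.

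Symbols came from GENCODE M21, which held 55227 of the 55487 IDs. With R 4.3.3 and edgeR 4.0.16, genes were kept by filterByExpr, and a robust quasi-likelihood model with 1 coefficient per group was fitted to all 8 libraries, with 4 residual degrees of freedom. There were 5 comparisons. P-values were adjusted (Benjamini-Hochberg) over the 20631 genes tested, and genes were called under 0.05. For each SE, the log2 fold change was divided by the root of F. A fold divides 1 group's mean CPM by the other's; with 3 counts or fewer in the lower group none is given. Biological variation, as edgeR's common coefficient, was 0.286.

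The members and lists were chosen with earlier results of these data known. Named besides the members were up to 4 genes per list called in the wild-type comparison, with at least 2-fold and 5 CPM in the higher group (otherwise the most abundant), any list gene called between a mutant and wild type, Irf8, Zeb2, Xcr1 and Sirpa as checks, and the 3 genes most like a member; further genes are said to be chosen after their values were seen. On simulated counts of the wild-type comparison 200 of 20631 genes were changed, all of at least 10 CPM. The share recovered was 6% for 1.5-fold, 82% for 2-fold and 99% for 3-fold changes, so smaller differences can be missed. The real wild-type comparison called 30.1% of genes, which makes its adjusted threshold less strict. The simulated shares therefore do not give its power. The 19 alternatives were other scalings and filters, DESeq2 1.42.0, limma-voom (limma 3.58.1), fewer groups, a replicate block, removal of a length trend and leaving out each library.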

Additional observations from a re-analysis of the deposited data

How the results depend on the processing

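In wild-type cDC1 against cDC2 the number of the 10 genes called ranged from 3 to 7 when each library was left out. The lowest number came without WT cDC2 replicate 3, where Tgfbr2, Smad4 and Smad7 kept the call and fewer of all genes were called too. Over all genes the main fit called 2932 higher and 3287 lower of 20631. DESeq2 called 3121 and 3790 of 19031, and the fit with no filter on low counts 3006 and 3449 of 43631. With DESeq2, and likewise with no filter, the number of the 10 genes called was 7. Between the mutants it ranged from 2 to 4. Leaving out each library gave 0 to 3 genes for the Zeb2 mutant and 0 to 2 for the difference of the mutants' effects, above 0 only without WT cDC1 replicate 3, and 0 for the Irf8 mutant. The other pathway genes gave 0 calls for the Zeb2 mutant, but 10 with no filter, 2 with the filter at 5 CPM, 7 with DESeq2, 2 with limma-voom and 0 to 14 when each library was left out, the 14 without WT cDC1 replicate 3. They gave 0 for the Irf8 mutant, but 4 with no filter and 2 with DESeq2, and 0 for the difference of effects, but 6 with no filter, 4 with DESeq2 and 0 to 10 when each library was left out. The causes were not tested. Over all genes, the Zeb2 mutant comparison called 3 higher and 11 lower, against 158 and 147 with DESeq2 258 and 219 with no filter, and 11 and 23 with the filter at 5 CPM. The Irf8 mutant comparison called 0 higher and 0 lower, against 76 and 75 with DESeq2 and 125 and 74 with no filter, and the difference of effects 0 and 4, against 81 and 81 and 139 and 167. No alternative reversed a call on the 10 genes.

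With the replicate number as a block the 10 genes gave 5 calls in wild type, 3 between the mutants and 0 in each other comparison, as without it, and it changed no call on any of them. Deviations of same-numbered libraries correlated between -0.179 and 0.0552 over the pairs of groups, none over 0.1, so the numbers were not taken as pairs; what a number stands for is not known here. A crossed replicate block, with the WT cDC1 numbers exchanged and chosen after seeing these correlations, gave 6 in wild type and, of the other pathway genes, 1 for the Zeb2 mutant and 1 for the difference of effects. With 2 libraries a group, most 1.5-fold changes were missed in the simulated counts, where few genes were changed. In the real wild-type comparison Skil, Tgfbr2, Tgfbr1 and Smad4 were called at 1.46-fold to 1.82-fold. Leaving out a library leaves its group with 1, which is assumed to vary like the other groups.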

Other observations

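The genes given here are further genes of the lists, chosen after their values were seen. Nrros, which anchors latent TGF-beta 1 on the surface of myeloid cells, stood at 305 and 260.9 CPM in WT cDC1 and at 871 and 763.6 CPM in WT cDC2, 2.89-fold lower in cDC1 (adjusted p = 1.35e-05, edgeR). Per length it was above the ligand gene in every library: Nrros had 65.62 FPKM or more and Tgfb1 55.44 FPKM or less. Lrrc32, which encodes the related anchor GARP, was not called (adjusted p = 0.359, edgeR). Of the integrin alpha v beta 8, which frees TGF-beta from its complex, the alpha subunit gene Itgav was at 58.32 to 97.88 CPM, while the beta subunit gene Itgb8 was at 0.07 to 1.16 CPM; neither was called between WT cDC1 and WT cDC2 (adjusted p 0.78 and 0.172, edgeR).

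Klf10, an early target of the pathway, was 6.12-fold lower in WT cDC1 than in WT cDC2, at 29.67 and 32.38 against 197.3 and 182.7 CPM (adjusted p = 6.02e-07, edgeR). Bhlhe40 was 10.9-fold lower, at 174.9 and 110 against 1580 and 1531 CPM (adjusted p = 9.76e-07, edgeR). Id2, a factor that cDC1 need, was 3.79-fold higher, at 848.7 and 552.1 against 174.3 and 195.4 CPM (adjusted p = 2.81e-05, edgeR). Gadd45b, a stress and TGF-beta response gene, stood at 91.02 and 106.1 CPM in Zeb2 mutant cDC1 against 221.1 and 161.9 CPM in WT cDC1 (log2 fold change -0.96, SE 0.16, adjusted p = 0.0806, edgeR; 3.37e-05 with DESeq2 and 0.0625 with limma-voom).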
